A study of Mus musculus with 12 samples.

Results

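The circadian clock genes described here, measured in 12 libraries of mouse epidermis, are Arntl (also called Bmal1), Clock, Per1, Per2, Per3, Cry1, Nr1d1, Nr1d2, Rora and Dbp. They were taken by name as a gene family, with no threshold on their values, and all 10 had values in both deposited tables, out of 19392 genes with values at postnatal day 36 (P36) and 17750 at 6 months. All 10 also passed the filter on low values, 1 FPKM in at least 3 libraries, in every comparison. FPKM is a level per gene length, scaled to the size of each library.

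The libraries form 4 groups of 3, all from dorsal epidermis of mice on a C57BL/6 background. In both genotypes the genes for the vitamin D receptor (VDR fl/fl) and its coactivator Med1 (Med1 fl/fl) carry floxed alleles. The double knockout (DKO) groups at 6 months and at P36 also carry a Cre transgene (K14 Cre+/-) under the K14 promoter, which works in the basal layer of the epidermis, so that cells arising from it are recombined too. The control groups at 6 months and at P36 carry the same floxed alleles without Cre (K14 Cre-/-), and other cells of the tissue keep both genes in either genotype. The labels give neither the hour of the day at which skin was taken nor whether each replicate is its own animal. The p-values therefore cover only the spread among the samples at hand, which may be technical.

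The clock is a feedback loop inside single cells. Arntl and Clock form a pair of activators that binds E-box DNA and turns on the Per, Cry and Nr1d genes and Dbp. Per and Cry proteins then block the activators, while the Nr1d nuclear receptors (Rev-erb) repress Arntl and the related receptor Rora activates it. Dbp passes the rhythm on to genes with D-box elements. In skin, keratinocytes and hair follicles are known to hold such a clock, and it times DNA replication and other functions to the day. Arntl peaks at roughly the opposite time of day to Dbp, Nr1d1 and the Per genes, so single time points catch only one phase.

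The targeted genes and the tissue markers set the frame for all values. Med1 averaged 11.6 ± 0.256 FPKM in DKO-labelled libraries and 14.2 ± 2.21 FPKM in control at 6 months (limma adjusted p = 0.13). At P36 it averaged 9.11 ± 1.11 FPKM in DKO-labelled libraries and 13.8 ± 0.504 FPKM in control and was called lower (adjusted p = 0.0083; SD, n = 3 each). Vdr averaged 48.1 ± 5.49 FPKM in DKO-labelled libraries and 40.5 ± 11.6 FPKM in control at 6 months, and 83.5 ± 6.06 FPKM in DKO-labelled libraries and 68.1 ± 4.16 FPKM in control at P36. At 6 months the Vdr values labelled DKO (42.11 to 52.89 FPKM) lay within the control range (31.36 to 53.52 FPKM). At P36 they lay wholly above control (76.53 to 87.35 against 65.5 to 72.85 FPKM). Vdr was thus not lower in the libraries labelled DKO, and which part of the gene was deleted is not given in the labels. The groups are therefore called by their labels, and every direction rests on those labels. All 7 keratinocyte markers were present and summed to between 4395 and 17390 FPKM in the 12 libraries. Skeletal muscle markers were present too: 12 of them, none at 0, summed to 153 to 646 FPKM in the libraries labelled DKO and 16.1 to 33.6 FPKM in control at P36. At 6 months the same sum was 11.4 to 165 FPKM in libraries labelled DKO and 11.9 to 74.4 FPKM in control, with 1 marker at most at 0.

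Promoter sequence is shown for Per1, which carries both motifs searched, and for Dbp, Nr1d1 and Arntl, the members called lower together at 6 months. The lines give the 250 bases before the start farthest upstream, 5′ to 3′ on the gene's strand, from RefSeq on GRCm38.p6. Per1 lies at chr11:69098699-69098948 (plus strand), Dbp at chr7:45704997-45705246 (plus strand), Nr1d1 at chr11:98775378-98775627 (minus strand) and Arntl at chr7:113207215-113207464 (plus strand). Capitals mark the E-box CACGTG and AGGTCA, the core of the element bound by Ror and Rev-erb receptors, searched on both strands.
Per1: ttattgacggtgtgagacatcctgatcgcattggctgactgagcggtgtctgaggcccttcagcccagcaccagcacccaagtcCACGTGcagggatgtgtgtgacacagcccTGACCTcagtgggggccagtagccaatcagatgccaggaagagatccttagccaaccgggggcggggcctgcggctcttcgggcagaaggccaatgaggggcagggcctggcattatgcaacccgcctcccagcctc
Dbp: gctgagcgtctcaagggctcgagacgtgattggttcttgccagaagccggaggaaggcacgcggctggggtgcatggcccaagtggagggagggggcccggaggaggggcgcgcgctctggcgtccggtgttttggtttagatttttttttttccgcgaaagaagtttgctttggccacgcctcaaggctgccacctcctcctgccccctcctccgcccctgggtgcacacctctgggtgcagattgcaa
Nr1d1: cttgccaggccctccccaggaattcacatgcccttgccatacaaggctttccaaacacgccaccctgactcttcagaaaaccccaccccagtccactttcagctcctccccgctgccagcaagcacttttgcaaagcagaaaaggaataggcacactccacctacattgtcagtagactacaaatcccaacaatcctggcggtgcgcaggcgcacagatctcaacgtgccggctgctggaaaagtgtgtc
Arntl: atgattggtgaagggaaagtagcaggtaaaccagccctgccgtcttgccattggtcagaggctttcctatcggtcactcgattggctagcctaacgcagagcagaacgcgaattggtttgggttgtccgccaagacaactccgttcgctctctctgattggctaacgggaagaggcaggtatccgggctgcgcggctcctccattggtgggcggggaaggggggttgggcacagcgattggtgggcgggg
In Per1 the E-box began at base −166 and AGGTCA, on the opposite strand, at base −137, counted from the start. Dbp, Nr1d1 and Arntl held neither run of letters in this window. Of the 9 members with an entry, Cry1 also had an E-box, at −60, and Nr1d2 an AGGTCA, at −77. Over all 32851 promoters of the same length, 6.02% held the E-box and 14.0% held AGGTCA. A missing match says only that these letters are not in the window. Ciart, another repressor of the activator pair, held 3 E-boxes.

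The order of the levels differed between the groups. In the libraries labelled DKO at 6 months, Rora was highest (42.9 ± 3.90 FPKM), followed by Per1 (36.2 ± 11.1), Nr1d2 (27.3 ± 1.41) and Nr1d1 (20.0 ± 4.73), and Dbp was lowest (8.27 ± 0.771; all SD, n = 3). In 6-month control, Per1 had the highest mean at 95.6 ± 95.4 FPKM, a spread as wide as the mean, followed by Nr1d1 (42.4 ± 6.88), Rora (36.7 ± 1.66), Nr1d2 (27.4 ± 7.23), Dbp (22.6 ± 3.11) and Arntl (20.3 ± 3.60), with Clock lowest at 7.87 ± 0.447 FPKM. Single values of neighbours overlapped along most of the control order, apart from the step between Arntl and Per3. In the libraries labelled DKO, Per1, Nr1d2, Nr1d1, Arntl, Per3 and Clock were separated from one another, while Rora overlapped with Per1, and Clock, Cry1, Per2 and Dbp with their neighbours. At P36 the order was the same in both genotypes for the lower 6 places (Nr1d1, Clock, Nr1d2, Per2, Dbp, Per3), which lay between 2.41 and 4.88 FPKM in libraries labelled DKO and between 1.86 and 2.86 FPKM in control. Those neighbours overlapped in their single values, so their order is not resolved by 3 libraries.

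**Figure D1:**
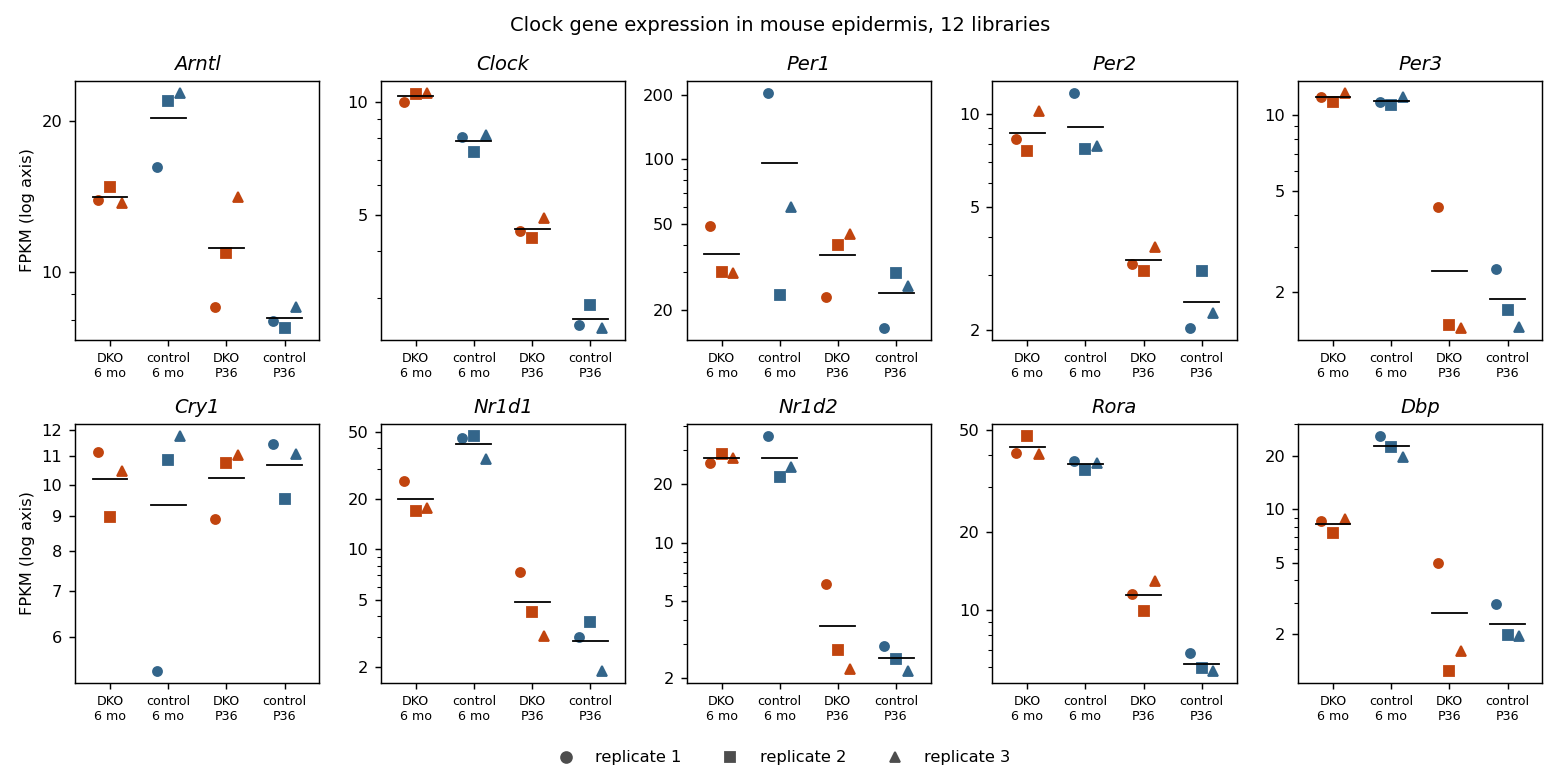
FPKM of each clock gene (log axes, scaled per gene) in the 12 libraries, 3 per group, with groups by their labels; points are libraries (orange for DKO-labelled, blue for control), marker shapes are replicate numbers and bars are means. At 6 months Dbp, Nr1d1, Arntl, Clock and Rora separate the genotypes. Control replicate 1 of that age stands alone for Per1 (204 FPKM) and Cry1 (5.36 FPKM).

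At 6 months, Dbp, Nr1d1 and Arntl fell and Clock rose in the libraries labelled DKO, while Per1, Per2, Per3, Cry1, Nr1d2 and Rora did not pass the test. With 4 of 10 members called, against 41.3% of all 12594 genes tested, the share called was near that of genes in general and is no result about the family. The direction was lower for 3 of 10 (18.2% of all genes) and higher for 1 of 10 (23.2%), and the members' median log2 fold change was −0.01, against 0.04 over all genes. Fold changes are on the log2(FPKM + 1) scale, which understates changes of low genes. Of 6 markers of smooth muscle and endothelium, 3 were called lower in the same libraries, between 2 and 5 with any one library left out. Of 7 keratinocyte markers, 3 were called lower and 2 higher (3 to 4 and 0 to 3 with a library left out). Of 8 leukocyte markers, 2 were called lower and 1 higher (1 to 2 and 0 to 1). No skeletal muscle, dermal fibroblast or adipocyte marker was called with all libraries. Without DKO-labelled replicate 3, 4 of 8 dermal fibroblast markers and 1 skeletal muscle marker were called lower. The part of all these cells in the results was not tested. In whole tissue, fewer cells of a type and less RNA per cell cannot be told apart.

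Among the activators, Arntl and Clock moved in opposite directions at 6 months. Arntl had 13.93, 14.73 and 13.69 FPKM in the libraries labelled DKO and 16.17, 21.94 and 22.78 FPKM in control. All 3 values labelled DKO lay below all 3 control values, and control replicate 1 came closest to them. The log2 fold change of Arntl was −0.48 (SE 0.14; 95% interval −0.81 to −0.15; limma adjusted p = 0.0303). Clock had 10.03, 10.52 and 10.60 FPKM in the libraries labelled DKO and 8.08, 7.36 and 8.18 FPKM in control, again without overlap. Its log2 fold change was 0.36 (SE 0.10; limma adjusted p = 0.0232). Both calls were narrow: each was lost without any one of 5 of the 6 libraries, the exception being control replicate 1 (adjusted p 0.0659 to 0.0995 for Arntl and 0.0536 to 0.0905 for Clock). Clock was also not called when totals left out keratin and cornified envelope genes (log2 fold change 0.19, adjusted p = 0.158), a scaling that put the median of all genes at −0.12.

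Dbp, the output regulator, showed the largest change of the 10 at 6 months. It had 8.59, 7.39 and 8.83 FPKM in the libraries labelled DKO and 25.79, 22.39 and 19.57 FPKM in control. The groups were far apart relative to their spread, and the mean was 0.366 times that of control. The log2 fold change of Dbp was −1.34 (SE 0.13; 95% interval −1.65 to −1.04; limma adjusted p = 0.000568), and it stayed between −1.44 and −1.25 with any one library left out. Muscle signal differed between the libraries labelled DKO, at 20.3, 11.4 and 165 FPKM for the summed markers in replicates 1 to 3, and its part in the Dbp values was not tested. Dbp shares 18.0% of its exon bases with Sphk2, a sphingosine kinase gene on the opposite strand, per GENCODE M21. Sphk2 also fell, with 43.49, 39.28 and 41.65 FPKM in libraries labelled DKO and 57.36, 60.14 and 60.67 FPKM in control (log2 fold change −0.51, adjusted p = 0.00375). None of the sources says whether reads were counted by strand, so those from the shared stretch cannot be told apart.

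Nr1d1 (Rev-erb alpha), a repressor of Arntl, fell together with Arntl, whereas its paralog Nr1d2 did not pass the test. Nr1d1 had 25.45, 16.91 and 17.64 FPKM in the libraries labelled DKO and 45.60, 47.14 and 34.53 FPKM in control at 6 months. No value labelled DKO reached the lowest control value. The log2 fold change of Nr1d1 was −1.06 (SE 0.19; 95% interval −1.50 to −0.62; limma adjusted p = 0.00447), and the call held without each library in turn (−1.24 to −0.95). Nr1d1 shares 8.55% of its exon bases with Thra, a thyroid hormone receptor gene on the opposite strand, which fell as well. Thra had 16.89, 15.73 and 20.48 FPKM in libraries labelled DKO and 48.32, 43.48 and 48.91 FPKM in control (log2 fold change −1.36, adjusted p = 4e-04). The part of shared reads in the Nr1d1 value was not tested. Nr1d2 (Rev-erb beta) had 25.90, 28.71 and 27.41 FPKM in the libraries labelled DKO and 35.60, 21.99 and 24.54 FPKM in control. The control values lay on both sides of those labelled DKO, and the log2 fold change was 0.03 (95% interval −0.38 to 0.43; adjusted p = 0.915). Rora had 40.83, 47.38 and 40.45 FPKM in the libraries labelled DKO and 38.04, 34.87 and 37.31 FPKM in control. Its groups did not overlap, but its log2 fold change of 0.21 (95% interval −0.02 to 0.45) did not pass the test (adjusted p = 0.12). In all, the groups of 5 of 10 members did not overlap at 6 months, against 55.7% of all genes, with 2 wholly higher (31.8%) and 3 wholly lower (24.0%).

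The Per genes and Cry1, the repressors that close the loop, did not pass the test at 6 months. Per3 had 11.74, 11.18 and 12.21 FPKM in the libraries labelled DKO and 11.22, 10.92 and 11.71 FPKM in control, a narrow spread in both groups. Its log2 fold change was 0.05 with a 95% interval of −0.17 to 0.27 (limma adjusted p = 0.699). Per2 had 8.32, 7.57 and 10.23 FPKM in the libraries labelled DKO and 11.72, 7.69 and 7.89 FPKM in control, and the groups overlapped (log2 fold change −0.04, interval −0.47 to 0.38, adjusted p = 0.863). Cry1 had 11.16, 8.97 and 10.49 FPKM in the libraries labelled DKO and 5.36, 10.87 and 11.78 FPKM in control, where replicate 1 alone was low (log2 fold change 0.18, interval −0.44 to 0.79, adjusted p = 0.615).

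Per1, the Per gene known to respond also to stress hormones and other acute signals, spread widely in 6-month control. It had 49.06, 29.83 and 29.74 FPKM in the libraries labelled DKO and 203.78, 23.33 and 59.83 FPKM in control. The range of the control values enclosed those labelled DKO, and the log2 fold change of −0.89 had a 95% interval of −2.51 to 0.73 (limma adjusted p = 0.332). Without control replicate 1 it was −0.09 (adjusted p = 0.881), and without control replicate 2 it was −1.62 (adjusted p = 0.0499). The immediate early genes, a class switched on within minutes of a stimulus, were also highest in control replicate 1: 9 of them, such as Fos and Egr1, summed to 5317 FPKM there, against 1153 and 1404 FPKM in control replicates 2 and 3 and 299 to 399 FPKM in the libraries labelled DKO. Of these 9, 8 were called lower in the libraries labelled DKO at 6 months, against 18.2% of all genes. Between 6 and 9 were called lower with any one library left out. At P36 0 of 9 were called, against 23.3% of all genes. Control replicate 1 also had the highest Wee1 (63.62 FPKM), a cell cycle kinase and clock target. A list of 11 glucocorticoid response genes summed to 3188 FPKM there, against 662 and 1073 FPKM in control replicates 2 and 3. In the libraries labelled DKO that sum was 580 to 720 FPKM. The part of collection hour or handling in that library was not tested. Leaving it out kept the calls of Dbp (log2 fold change −1.25, adjusted p = 0.00184), Nr1d1 (adjusted p = 0.0158), Arntl (−0.63, adjusted p = 0.00463) and Clock (0.38, adjusted p = 0.0297).

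**Figure D2:**
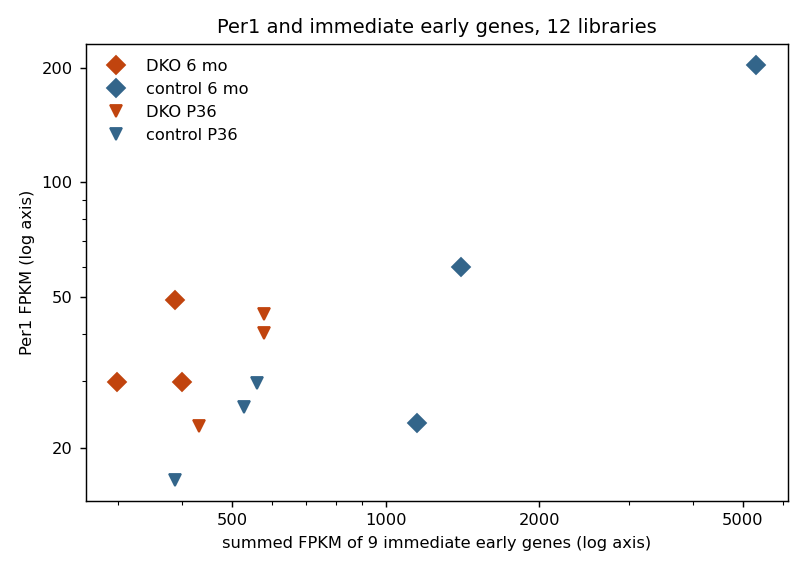
Per1 FPKM against the summed FPKM of 9 immediate early genes (log axes), 1 point per library, orange for DKO-labelled and blue for control. The 6-month control libraries lie furthest right, from 1153 to 5317 FPKM, and 1 of them is also highest for Per1, at 204 FPKM.

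At P36, Clock and Rora rose in the libraries labelled DKO, and none of the 10 members was called lower. The 2 of 10 members called compare with 23.3% of all 12660 genes tested (18.0% higher and 5.32% lower), again a share near the background. The members' median log2 fold change was 0.37, against 0.09 over all genes. The groups of 2 of 10 members did not overlap, both higher, against 39.6% of all genes (30.0% higher and 9.63% lower).

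Clock had 4.53, 4.32 and 4.91 FPKM in the libraries labelled DKO and 2.53, 2.87 and 2.49 FPKM in P36 control. All 3 values labelled DKO stood well clear of the highest control value. Its log2 fold change was 0.62 (SE 0.11; 95% interval 0.37 to 0.88; limma adjusted p = 0.00593). Rora had 11.49, 9.94 and 12.95 FPKM in the libraries labelled DKO and 6.83, 5.97 and 5.80 FPKM in control, without overlap. Its log2 fold change was 0.79 (SE 0.12; 95% interval 0.50 to 1.07; limma adjusted p = 0.0034). Both calls held without each library in turn (0.58 to 0.67 for Clock and 0.70 to 0.88 for Rora). Markers of other cell types were higher in the same libraries, with 11 of 12 skeletal muscle markers (7 without replicate 1 or 2 labelled DKO) and 7 of 8 leukocyte markers called higher, while 7 of 7 tested hair follicle markers were called lower. Also called higher were 6 of 7 tested adipocyte, 4 of 8 dermal fibroblast and 4 of 6 smooth muscle and endothelial markers. Muscle markers summed to 646, 369 and 153 FPKM in replicates 1 to 3 labelled DKO. Leukocyte markers summed to 293 to 380 FPKM in libraries labelled DKO and 76.1 to 96.8 FPKM in control, and the part of all these cells in the result was not tested.

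Replicate 1 labelled DKO stood apart at P36 for Dbp, Nr1d2 and Per3. Dbp had 5.03, 1.24 and 1.60 FPKM in the libraries labelled DKO and 2.95, 1.97 and 1.94 FPKM in control. Nr1d2 had 6.12, 2.79 and 2.22 FPKM in the libraries labelled DKO and 2.92, 2.51 and 2.18 FPKM in control. Per3 had 4.31, 1.48 and 1.44 FPKM in the libraries labelled DKO and 2.45, 1.69 and 1.45 FPKM in control. Control replicate 1 was also the highest of its own group for all 3 genes. In all 3 genes replicate 1 labelled DKO was the highest of the 6 libraries, as it was for Nr1d1 (7.36, against 4.22 and 3.06 FPKM in the other DKO-labelled libraries and 3.02, 3.67 and 1.89 FPKM in control). The same library had the lowest Arntl of its group, at 8.51 FPKM against 10.91 and 14.08 FPKM, near the control values of 7.97, 7.72 and 8.51 FPKM. None of these 5 genes was called at P36 by limma (adjusted p = 0.991 for Dbp, 0.453 for Nr1d2, 0.753 for Per3, 0.193 for Nr1d1 and 0.123 for Arntl). Without that library the log2 fold change of Dbp was −0.43, against 0.01 with it, and of Per3 −0.20, against 0.17 with it; neither was called (adjusted p = 0.144 and 0.484). Arntl and Per1 were then called higher (0.56, adjusted p = 0.0259, and 0.84, adjusted p = 0.0429), so 4 of 10 members were called without it, where the same fit called 20.6% of all 12298 genes tested. That library also had the highest muscle sum of all 12, and the part of muscle tissue or collection hour in its values was not tested.

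The remaining loop repressors did not pass the test at P36. Per1 had 22.83, 40.02 and 45.04 FPKM in the libraries labelled DKO and 16.47, 29.63 and 25.65 FPKM in control (log2 fold change 0.55, SE 0.28, limma adjusted p = 0.207). Per2 had 3.27, 3.10 and 3.71 FPKM in the libraries labelled DKO and 2.03, 3.11 and 2.26 FPKM in control, where 1 control library reached into the DKO-labelled range (0.34, interval 0.00 to 0.68, adjusted p = 0.14). Cry1 had 8.92, 10.76 and 11.05 FPKM in the libraries labelled DKO and 11.46, 9.53 and 11.09 FPKM in control, with group means at both ages between 9.34 and 10.7 FPKM (−0.06, interval −0.33 to 0.22, adjusted p = 0.781).

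**Figure D3:**
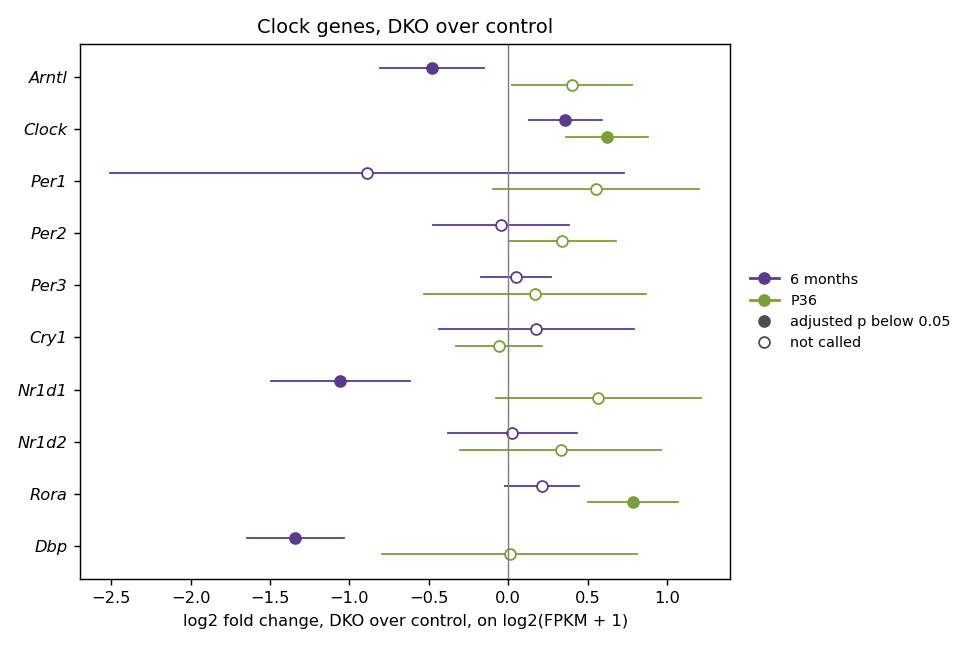
Log2 fold change of DKO-labelled over control libraries on the log2(FPKM + 1) scale for each clock gene, at 6 months and at P36 (n = 3 each); lines are 95% intervals of the limma fit and filled points have an adjusted p below 0.05. Dbp (−1.34), Nr1d1 (−1.06) and Arntl (−0.48) lie left of 0 at 6 months only.

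The genotype effect itself differed between the ages for 4 of 10 members, against 34.9% of all 13280 genes in the fit of both ages. All 4 were lower in the difference of 6 months minus P36 (21.1% of all genes) and none higher (13.8%), and the members' median difference was −0.48, against −0.08 over all genes. Nr1d1 differed by −1.63 on the log2 scale (SE 0.37, limma adjusted p = 0.00671), Dbp by −1.35 (SE 0.42, adjusted p = 0.0271), Arntl by −0.88 (SE 0.23, adjusted p = 0.0126) and Rora by −0.57 (SE 0.15, adjusted p = 0.0145). The Dbp difference was not called without P36 control replicate 2 or 3, 6-month control replicate 1 or 6-month DKO-labelled replicate 2 (adjusted p 0.0544 to 0.0623). Clock rose at both ages, and its difference of −0.26 did not pass (adjusted p = 0.147). For Per2, Per3, Cry1 and Nr1d2 the differences lay between −0.38 and 0.23 and did not pass. For Per1 the difference was −1.44 with an interval of −3.26 to 0.38 (adjusted p = 0.197), and without 6-month control replicate 2 it was called (−2.18, adjusted p = 0.0249).

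Ratios within a library do not depend on the library's total and here set Dbp, Nr1d1 and Per3 against Arntl. Dbp over Arntl was 0.617, 0.502 and 0.645 in DKO-labelled libraries, against 1.59, 1.02 and 0.859 in control, at 6 months. At P36 the ratio was 0.591, 0.114 and 0.114 in DKO-labelled libraries, against 0.370, 0.255 and 0.228 in control. The 6-month groups did not overlap, while at P36 replicate 1 labelled DKO lay above all controls and the other replicates below them. Per3 over Arntl ran the other way at 6 months, at 0.843, 0.759 and 0.892 in DKO-labelled libraries, against 0.694, 0.498 and 0.514 in control. Nr1d1 over Arntl overlapped at 6 months, at 1.83, 1.15 and 1.29 in DKO-labelled libraries, against 2.82, 2.15 and 1.52 in control. No test was run on these ratios.

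**Figure D4:**
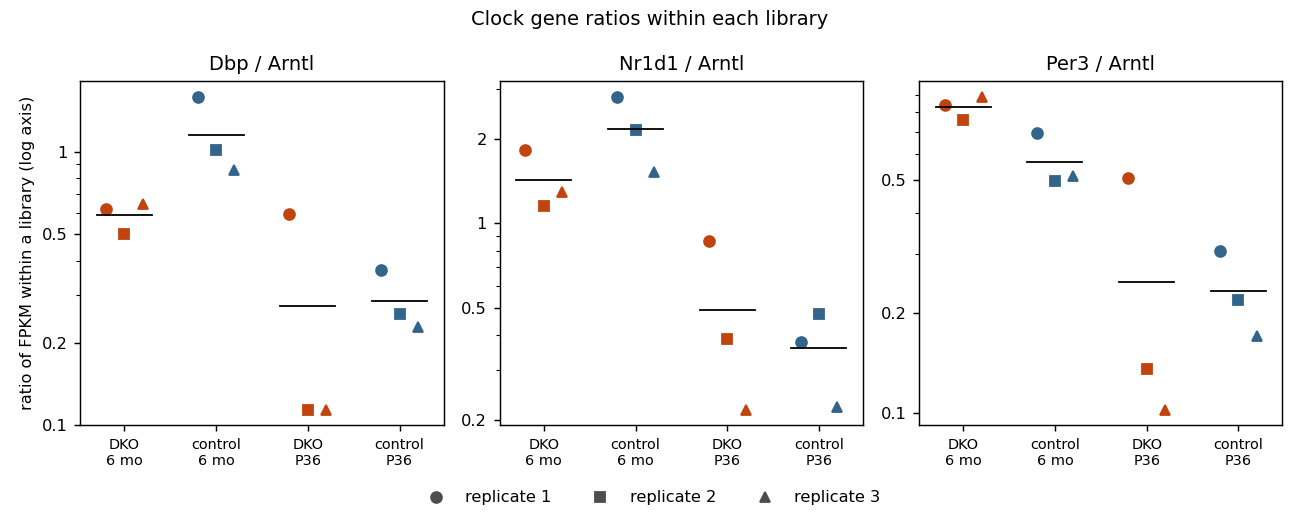
Ratio of the FPKM of Dbp, Nr1d1 and Per3 to that of Arntl within each library (log axes), orange for DKO-labelled and blue for control, with replicate numbers by marker shape and means as bars. Replicate 1 labelled DKO at P36 (Dbp over Arntl 0.591) stands above its group, and the 6-month groups separate for Dbp and for Per3.

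Most of the family was higher at 6 months than at P36. In the libraries labelled DKO, 7 of 10 members were called higher and none lower, against 60.0% of all genes called (28.0% higher and 32.0% lower). In control 9 of 10 were called higher and none lower, against 63.1% of all genes (35.3% higher and 27.9% lower). The members' median log2 change with age was 1.32 in libraries labelled DKO (−0.06 over all genes) and 1.82 in control (0.10 over all genes). In the libraries labelled DKO the ages of 7 of 10 members did not overlap, all 7 higher at 6 months, against 65.9% of all genes (31.2% higher and 34.7% lower). In control 8 of 10 did not overlap, all 8 higher, against 69.0% (38.7% higher and 30.3% lower). Nr1d1 averaged 20.0 FPKM at 6 months and 4.88 FPKM at P36 in the libraries labelled DKO (log2 change 1.88, SE 0.26, limma adjusted p = 0.000112), and 42.4 and 2.86 FPKM in control (3.51, SE 0.26, adjusted p = 5.42e-07). Nr1d2 averaged 27.3 and 3.71 FPKM in the libraries labelled DKO (2.68) and 27.4 and 2.54 FPKM in control (2.98). Dbp rose to 8.27 FPKM at 6 months, against 2.62 FPKM at P36, in the libraries labelled DKO (1.50, adjusted p = 0.00112), and to 22.6 FPKM, against 2.29 FPKM, in control (2.85, adjusted p = 6.79e-06). Arntl was called higher with age in control (1.22, adjusted p = 4.72e-05) and not in the libraries labelled DKO (0.34, adjusted p = 0.0907), where it was called without P36 replicate 3 (0.51, adjusted p = 0.0166). Per1 was called in control (1.47, adjusted p = 0.0458) on overlapping values. That call was lost without 6-month control replicate 1 (0.67, adjusted p = 0.183) or replicate 3 (adjusted p = 0.0748), and without any P36 control replicate (0.0583 to 0.137). Cry1 was not called in either genotype (adjusted p = 0.988 in libraries labelled DKO and 0.358 in control). Each age has its own table, so age cannot be told apart from anything else that differed between the tables. The hair follicle differed as well: 7 markers of growing follicles summed to 9.83 to 31.6 FPKM in libraries labelled DKO and 14.6 to 23.1 FPKM in control at 6 months, and to 9222 to 12681 FPKM in libraries labelled DKO and 20648 to 27234 FPKM in control at P36. In control, 6 of 8 leukocyte markers, 5 of 7 keratinocyte markers and 7 of 9 immediate early genes were also called higher at 6 months than at P36. In the libraries labelled DKO, 11 of 12 skeletal muscle, 6 of 7 tested adipocyte, 5 of 6 smooth muscle and endothelial and 5 of 8 dermal fibroblast markers were called lower at 6 months, and 3 of 8 leukocyte markers higher. The part of these cells and of follicle stage in the clock levels was not tested.

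Other clock genes were taken from a list of 21 and included the paralogs and regulators of the 10. At 6 months 19 were tested, of which 6 fell and 4 rose in the libraries labelled DKO (median log2 fold change −0.02), against 18.2% of all genes lower, 23.2% higher and a median of 0.04. The count of those that rose was 2 without control replicate 2 or 3 or DKO-labelled replicate 1 or 3. Hlf and Tef belong with Dbp to one family of D-box activators, and both fell. Hlf had 11.71, 8.57 and 9.60 FPKM in the libraries labelled DKO and 25.11, 19.99 and 21.78 FPKM in control (log2 fold change −1.09, SE 0.14, limma adjusted p = 0.00146). Tef had 39.99, 38.33 and 38.94 FPKM in the libraries labelled DKO and 57.16, 51.88 and 57.46 FPKM in control (−0.49, SE 0.09, adjusted p = 0.00433). All 3 D-box activators thus lay wholly below control at 6 months, as did 24.0% of all genes. Nfil3, a repressor at the same elements, also lay below, at 6.76 to 7.37 FPKM in libraries labelled DKO and 7.72 to 30.41 FPKM in control.

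Npas2, a paralog of Clock, changed in the direction opposite to Clock at 6 months. Npas2 had 0.81, 0.67 and 0.78 FPKM in the libraries labelled DKO and 3.71, 3.50 and 4.14 FPKM in control (log2 fold change −1.45, SE 0.13, adjusted p = 0.000404). Arntl2, the paralog of Arntl, likewise moved opposite to it, with 10.46, 10.94 and 10.58 FPKM in the libraries labelled DKO and 7.18, 8.21 and 6.70 FPKM in control (0.48, adjusted p = 0.0112). Both pairs of paralogs were therefore split at this age. The groups did not overlap in any of the 4 genes, as was so for 55.7% of all genes. The calls of Arntl and Clock were narrow, each lost without any one of 5 of the 6 libraries. Cry2, a repressor like Cry1, had 9.88, 8.17 and 9.19 FPKM in the libraries labelled DKO and 35.91, 18.05 and 17.62 FPKM in control (−1.23, adjusted p = 0.00933). Btrc, part of a ubiquitin ligase that marks Per proteins for breakdown, also fell (−0.76, adjusted p = 0.00555). The kinase genes Csnk1e (0.30) and Csnk1a1 (0.33) and Nono (0.48), a Per-binding protein, rose (adjusted p = 0.0468, 0.0308 and 0.00645).

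At P36 18 of the 21 were tested, and 2 rose and 2 fell (median 0.04), against 18.0% of all genes higher, 5.32% lower and a median of 0.09. The share called in either direction was near the 23.3% of all genes. The count of those that fell was 1 without any control library or DKO-labelled replicate 2 or 3, and that of those that rose was 1 without DKO-labelled replicate 2. Arntl2 rose, with 4.07, 3.61 and 3.42 FPKM in the libraries labelled DKO and 1.76, 1.26 and 1.31 FPKM in control (log2 fold change 0.95, limma adjusted p = 0.0021), and Ciart rose by 0.52 (adjusted p = 0.0123). Nfil3, a repressor that competes for D-box elements, fell, with 32.68, 36.82 and 34.67 FPKM in the libraries labelled DKO and 55.71, 63.85 and 59.21 FPKM in control (−0.76, adjusted p = 0.0013). Csnk1e fell by 0.31 (adjusted p = 0.0313), the opposite of its call at 6 months. Hlf and Tef, by contrast, stood at −0.03 and −0.06 at P36 and were not called (adjusted p = 0.925 and 0.908).

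**Figure D5:**
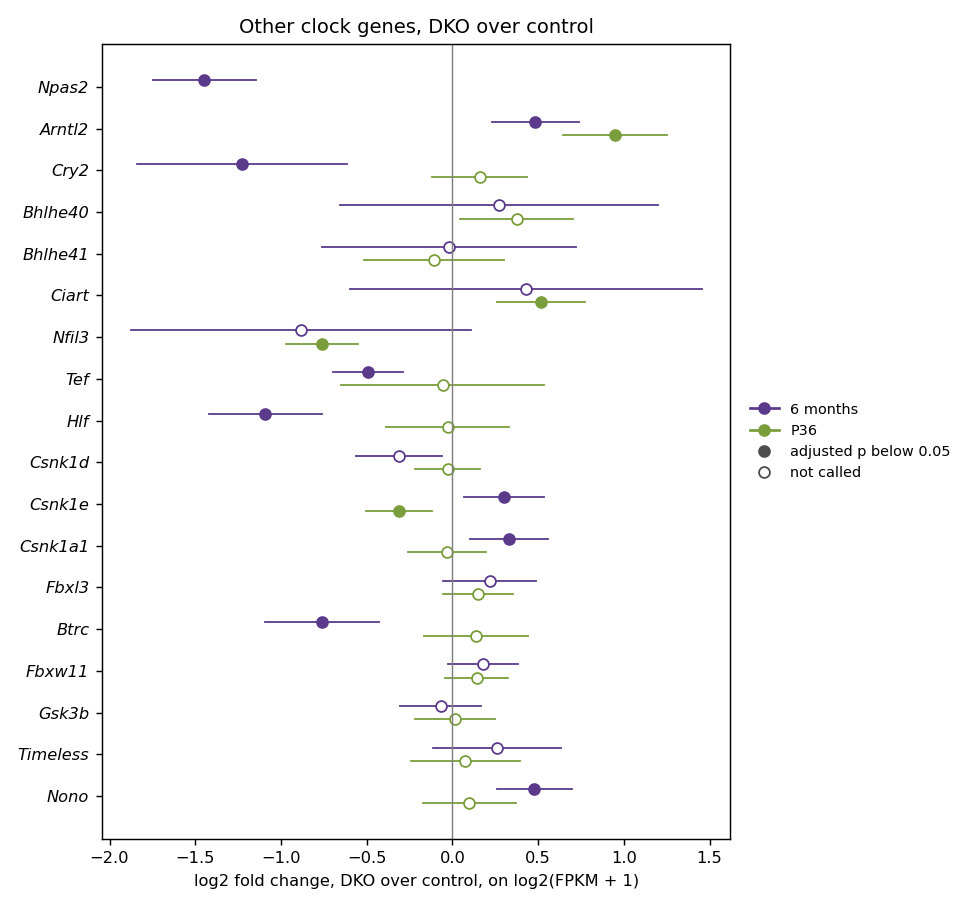
Log2 fold change of DKO-labelled over control libraries on the log2(FPKM + 1) scale for 18 of the other clock genes, at 6 months and at P36 (n = 3 each), with 95% intervals of the limma fit and filled points for an adjusted p below 0.05. Npas2 (−1.45), Cry2 (−1.23) and Hlf (−1.09) lie furthest left at 6 months, and Npas2, not tested at P36, has no point for that age.

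Known targets of the clock and of glucocorticoids, hormones that also set Per1, were read against the same shares of all genes, 41.3% called at 6 months and 23.3% at P36. Of 9 clock targets, 2 fell and 1 rose in the libraries labelled DKO at 6 months. Wee1 fell by 1.54 (limma adjusted p = 0.0474) and Cdkn1a, a cell cycle inhibitor, by 0.70 (adjusted p = 0.00588), while Nampt, an enzyme of NAD synthesis, rose by 0.83 (adjusted p = 0.00293). Aqp3, a glycerol channel, did not pass (−0.71, adjusted p = 0.0558). The count that fell was 4 without control replicate 2, and 1 without DKO-labelled replicate 2 or 3. At P36 Nampt and Klf10 rose (0.44 and 0.43, adjusted p = 0.0172 and 0.0286) and none fell, and no target was called without control replicate 1 or DKO-labelled replicate 2 or 3. Of 11 glucocorticoid response genes, Nr3c1, the receptor itself, fell by 0.56 (adjusted p = 0.00734) and Ddit4, a stress-induced inhibitor of mTOR signalling, by 0.84 on overlapping values (adjusted p = 0.0432) at 6 months. That count was 5 without control replicate 2, and 1 without any one of the other 5 libraries, and 2 genes were called higher without control replicate 1. At P36 Cebpd (1.24), Fkbp5 (1.17) and Nr3c1 (0.33) rose, and 1 of the 11 was called without control replicate 1 or DKO-labelled replicate 2 or 3. Of 6 cell cycle genes, 2 were called higher at 6 months, but none without DKO-labelled replicate 2 or 3 or any one control library, and 0 at P36.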

How the data were processed

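Epidermal RNA of 12 libraries, 3 per genotype and age, was analysed from 1 table per age. The authors deposited FPKM values (2 decimals) per gene and library, and, per the file headers, their own log2 ratio of DKO over control with a p-value and a q-value. The tools named in the submitters' processing notes are HISAT2 2.1.0 and RSEM 1.2.8. The notes name human builds (GRCh38, hg38) for these mouse samples, so no gene coordinates of the files are given. A table's age comes from its name, since its columns give only genotype and replicate number. Of the identifiers with values, 19343 of 19392 at P36 and 17712 of 17750 at 6 months matched a RefSeq symbol (GRCm38.p6).

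Each library held 446617 to 554382 FPKM in total, with 12056 to 12760 genes at 1 FPKM or more. FPKM are not counts: the smallest value above 0 was 0.01 in every library, which is the rounding step, so the worth of 1 read could not be read off. Depth is unknown and no counting interval is given.

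limma 3.58.1 (R 4.3.3) with a variance trend was fitted to log2(FPKM + 1) of every gene that reached 1 FPKM in 3 or more of the fitted libraries, with Benjamini-Hochberg adjustment over all of them and a threshold of 0.05. Each age was fitted on its 6 libraries, and age effects and the difference between ages on all 12, over the 17665 genes in both tables before the filter. The code was tested on simulated data. Alternatives were a pseudocount of 0.1, no filter, a filter at 5 FPKM, 2 other scalings, no variance trend, a joint fit, a replicate block and leaving out each library.

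The clock genes and all lists were chosen with earlier results of these data known. Named were all 10 clock genes, called genes of the other clock list, up to 4 per further list with the smallest p, and the 5 genes nearest in profile to Dbp and to Arntl. Immediate early genes Fos and Egr1 serve as examples only. Thra and Sphk2 were added after their values were seen, because their exons overlap clock genes. Per2 has no promoter entry in the table used. Of the other clock list, 1 called gene is counted but not reported here.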

Additional observations from a re-analysis of the deposited data

Results flagged for a closer look

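The effect of the DKO label differed between 6 months and P36, by the interaction term of the limma fit on all 12 libraries, for 4 of the 10 clock genes and 7 of 19 tested other clock genes, against 34.9% of all genes, so neither count stands far from the background. On the log2 scale (6 months minus P36) the difference was −0.88 for Arntl, −1.63 for Nr1d1, −1.35 for Dbp and −0.57 for Rora. It was −1.81 for Npas2 (adjusted p = 0.00106), −0.46 for Arntl2 (0.0436), −1.39 for Cry2 (0.00573), −1.06 for Hlf (0.00333) and −0.90 for Btrc (0.00316). Npas2 did not pass the filter at P36 alone, with 0.52, 1.12 and 1.81 FPKM in libraries labelled DKO and 0.78, 0.87 and 0.29 FPKM in control. The kinase genes Csnk1e and Csnk1a1 differed in the positive direction, Csnk1e by 0.61 (0.00319) and Csnk1a1 by 0.36 (0.049). Groups of 3 are too small for a test of single outlying samples, so the libraries that stood apart are described by their values alone.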

How the results depend on the processing

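The calls of Dbp and Nr1d1 at 6 months and of Rora at P36 held under every alternative run, and that of Clock at P36 wherever Clock was tested (a filter at 5 FPKM removed it). With a pseudocount of 0.1, the uncalled change of Dbp at P36 became −0.047, and the difference between ages for Dbp was no longer called (−1.39, adjusted p = 0.0727). The age call of Per1 in control was lost with no filter (adjusted p = 0.0665) and with median-ratio scaling (adjusted p = 0.0597). With the filter at 5 FPKM, 1 clock gene and 0 other clock genes were called higher at P36, and 1 glucocorticoid response gene higher at 6 months. With no filter, 1 clock target and 1 glucocorticoid response gene were called lower at 6 months. Totals without keratin and cornified envelope genes left 0 clock genes and 1 other clock gene higher and 5 clock targets lower at 6 months, and 1 target higher at P36. They also turned the uncalled values of Dbp at P36 (−0.030) and of Per3 and Nr1d2 at 6 months (−0.13 and −0.16). Median-ratio scaling gave 1 target higher at P36 and 2 other clock genes higher at 6 months, with −0.064 for Dbp at P36, −0.011 for Per3 and −0.037 for Nr1d2 at 6 months and 0.011 for Cry1 with age in libraries labelled DKO. Without the variance trend, 1 other clock gene was lower at P36 and 1 target at 6 months. The joint fit gave 1 other clock gene higher and 1 lower at P36, and 4 targets lower and 1 glucocorticoid response gene higher at 6 months. Over all genes tested, samples with the same replicate number did not deviate together (correlations −0.115 to 0.183). Not every sample correlated best with its own number. Among the clock genes at P36, however, replicate 1 was the highest of its group in both genotypes for Dbp, Nr1d2 and Per3. It was the lowest in both for Per1, and the other members had no such shared extreme in replicate 1. The main fits did not pair samples, and whether samples of the same number were collected together was not tested. With the replicate block, Clock at 6 months was not called (adjusted p = 0.0588), so that 0 clock genes and 2 other clock genes were higher, 4 targets lower and 1 glucocorticoid response gene higher at 6 months, and 1 other clock gene lower at P36. The block also called Per1 at P36 (adjusted p = 0.0196). For Arntl with age in libraries labelled DKO it gave −0.021, but the blocks were set within each age. A change with age cannot be separated from such blocks, so this value does not estimate it, and no conclusion is drawn from it. Leaving out each library in turn at 6 months gave 0 to 1 clock genes higher, 2 to 3 lower, 2 to 4 other clock genes higher, 1 to 4 targets lower, and 0 to 2 glucocorticoid response genes higher and 1 to 5 lower. At P36 it gave 2 to 4 clock genes higher, 1 to 2 other clock genes higher, 1 to 2 lower, 0 to 3 targets higher and 1 to 4 glucocorticoid response genes higher. Over all genes, these fits called 29.6% to 39.6% at 6 months (41.3% with all libraries) and 13.5% to 21.1% at P36 (23.3%). The other alternatives called 29.8% to 48.0% of all genes at 6 months and 17.5% to 23.3% at P36. Uncalled values that crossed 0 with a library left out at 6 months were those of Cry1 (−0.14 to 0.36), Nr1d2 (−0.11 to 0.22) and Per2 (−0.15 to 0.13). At P36 they were those of Dbp (−0.43 to 0.28), Per3 (−0.20 to 0.36), Cry1 (−0.13 to 0.030) and Nr1d2 (−0.012 to 0.56). In the difference between ages they were those of Cry1 (−0.083 to 0.42), Nr1d2 (−0.53 to 0.039) and Per3 (−0.31 to 0.25). With age they were those of Cry1 in control (−0.42 to 0.079), and of Cry1 (−0.092 to 0.077) and Per1 (−0.26 to 0.21) in libraries labelled DKO. Where 5 libraries remain, an effect must be larger to pass, and otherwise the cause of these shifts was not tested. Depth is unknown, so values near 1 FPKM carry counting error of unknown size.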

Other observations

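By profile over all 12 libraries, the gene nearest to Dbp among 13280 was Hlf, its relative in the D-box family, with a mean absolute difference of 0.246 on the centred log2(FPKM + 1) scale. It was followed by Kctd12, Il18r1, Mrgprb2 and Stk10 (0.297 to 0.326); Dbp itself deviated from its mean by 1.09 on average. The genes nearest to Arntl were Bicdl1, Ripply3, Fam241b, Zfp629 and Siae (0.0913 to 0.121), against a mean deviation of 0.413 for Arntl. The 12 libraries fall into 4 groups, which all these genes share.

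In the authors' deposited table, 7 of the 10 clock genes had an unadjusted p-value under 0.05 at 6 months, against 74.1% of all genes with one, and 8 of 10 at P36, against 65.6%. At the same unadjusted threshold limma had 4 of 10 at each age. The limma share of all genes at that threshold is not given here, so these counts cannot be set against the authors' counts. For Per1 at 6 months the authors' deposited table gives a log2 ratio of −1.37 with a p-value listed as 0, where the 3 control libraries ranged from 23.33 to 203.78 FPKM. For Dbp at P36 the authors' deposited table gives a log2 ratio of 0.20 with a p-value of 0.156.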
